A study of Homo sapiens with 42 samples.

Results

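The genes described here build, fill and serve the lysosome. They were chosen by gene symbol from the deposited expression table, as subunits of the vacuolar proton pump (symbols beginning ATP6V0, ATP6V1 or ATP6AP), cathepsins, the lysosomal membrane proteins LAMP1 and LAMP2, the cholesterol exporters NPC1 and NPC2, the glycosidases GLA, GLB1 and HEXA, and the numbered VPS and SNX sorting genes. The rule gave 63 of the 8738 genes in the table. All 63 passed the filter on low values in both cell lines, which asked for 3 or more libraries with an FPKM of 1 or above. FPKM counts fragments per kilobase of transcript, scaled to the mapped fragments of the library, and so takes transcript length into account. The rule reads symbols and no measured value, but it was written with earlier results of these data known.

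The vacuolar ATPase pumps protons into lysosomes and endosomes. Its V1 sector hydrolyses ATP in the cytosol and turns the membrane-embedded V0 sector, which carries the protons. The low pH that results activates cathepsins and other hydrolases, which reach the lysosome through endosomes along routes kept by ESCRT, HOPS, CORVET, GARP, retromer and the sorting nexins. Cholesterol freed in the lysosome is handed from NPC2 to NPC1 and leaves through the membrane. Statins block the synthesis of mevalonate, from which cells make cholesterol and the prenyl anchors of small GTPases, including the RAB proteins that direct vesicle traffic. Many lysosomal genes carry a CLEAR element, an E-box bound by TFEB, TFE3 and MITF, in the promoter.

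The RNA came from MiaPaCa-2 and PANC-1, established human lines of pancreatic ductal adenocarcinoma. Each line had a control group without statin and groups with fluvastatin, lovastatin or simvastatin at 2 µM or at 20 µM, which makes 14 groups. Fluvastatin is synthetic, and simvastatin carries 1 methyl group more than lovastatin on its side-chain ester. Each group is labelled with 3 libraries, but 2 columns of the table were exact weighted sums of other columns and were left out. In MiaPaCa-2, the control and the lovastatin group at 20 µM therefore had n = 2, and all other groups n = 3. No source used here gives the length of treatment or the vehicle of the controls. The labels do not say that replicates were separate cultures, so the p-values rest on the spread among these libraries, and that spread may be technical. The words "rose", "fell" and "called" refer to an adjusted p under 0.05 in limma's moderated test with Benjamini-Hochberg adjustment over all genes tested. All changes are differences on the log2(FPKM + 1) scale, followed where useful by ± their standard error, and they understate changes of genes near 0 FPKM.

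Sequencing depth is unknown for these libraries. The keratin genes KRT8, KRT18 and KRT19 marked both lines as epithelial, while the epithelial adhesion genes EPCAM and CDH1 had medians of 58.4 and 34.9 FPKM in PANC-1 but 0.825 and 0.49 in MiaPaCa-2. Of 7 leukocyte markers, 2 were in the table, CD68 and CD14. CD68, a lysosomal protein, had a median of 23.2 FPKM across MiaPaCa-2 libraries and 42.1 across those of PANC-1. For CD14 these medians were 3.53 and 1.06. Of 6 fibroblast markers, 2 were in the table, the collagen genes COL1A1 and COL1A2. COL1A1 had a median of 144 FPKM in PANC-1 and 0.914 in MiaPaCa-2, and COL1A2 had 0.14 and 142. Their summed level in MiaPaCa-2 was 55.47 to 69.72 FPKM in the controls, 124 to 151.1 over the 2 µM groups, and 178.6 to 216.5 with fluvastatin, 140.5 to 150.4 with lovastatin and 25.97 to 38.26 with simvastatin at 20 µM. In PANC-1 it was 137.6 to 159.2 in the controls, 146.2 to 166.4 at 2 µM, and 87.22 to 103.4, 105.3 to 121.7 and 54.58 to 73.91 at 20 µM. The collagen genes thus moved with the statin groups, and their part in the results was not tested. In bulk RNA, fewer cells of a kind and less RNA per cell cannot be told apart. Simvastatin replicate 3 at 20 µM in PANC-1 stood apart from its group, with a median absolute log2 deviation of 0.309 over the members and 0.248 over all genes. Its other replicates had at most 0.164. PANC-1 control replicate 3 had 0.201 over all genes. Values that rest on 1 library are given below with the value without it.

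Promoters are shown for some of the members that hold the E-box, so that it can be seen in place. Of the 63 members, 50 had a promoter window in RefSeq on GRCh38.p14, covering 250 bases before to 50 bases after the transcription start. The core E-box CACGTG reads alike on both strands. It was present in 11 of the 50 windows, or 22%, and in 2548 of all 35116 RefSeq windows, or 7.26%. The larger set was not limited to the genes of the expression table or to 1 window per symbol, so these shares come from unlike sets. The longer CLEAR palindrome, the same core with GT before it and AC after it, was present in 1 of the 50, or 2%, and in 0.353% of all windows. The member with the long form was ATP6V1G1, a V1 subunit. CTSD and CTSA encode lysosomal proteases, ATP6V0B and ATP6V0D1 are V0 subunits, and LAMP1 is the lysosomal membrane protein whose window held the core 6 times, 5 of them in the stretch shown. Part of each window is printed on the gene's own strand, with the core in capitals.
ATP6V1G1, chr9:114587669-114587768, plus strand: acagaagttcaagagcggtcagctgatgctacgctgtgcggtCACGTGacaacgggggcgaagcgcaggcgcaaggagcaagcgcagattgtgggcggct
CTSD, chr11:1763928-1764027, minus strand: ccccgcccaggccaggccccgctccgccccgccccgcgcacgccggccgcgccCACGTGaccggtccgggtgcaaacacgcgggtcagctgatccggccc
CTSA, chr20:45891235-45891334, plus strand: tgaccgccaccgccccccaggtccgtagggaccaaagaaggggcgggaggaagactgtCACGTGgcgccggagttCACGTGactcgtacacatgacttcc
ATP6V0B, chr1:43974860-43974959, plus strand: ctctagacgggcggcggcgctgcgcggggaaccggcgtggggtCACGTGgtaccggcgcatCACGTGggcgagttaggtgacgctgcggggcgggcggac
ATP6V0D1, chr16:67481158-67481257, minus strand: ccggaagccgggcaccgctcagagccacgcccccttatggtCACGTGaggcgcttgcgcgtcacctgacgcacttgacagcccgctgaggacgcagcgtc
LAMP1, chr13:113297039-113297238, plus strand: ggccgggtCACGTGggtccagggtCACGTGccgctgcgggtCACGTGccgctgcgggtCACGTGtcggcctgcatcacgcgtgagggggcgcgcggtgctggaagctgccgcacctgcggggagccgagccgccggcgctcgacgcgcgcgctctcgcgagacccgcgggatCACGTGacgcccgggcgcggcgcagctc

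The other holders of the core were ATP6V0E2, SNX8, VPS16, VPS37B and VPS8. The windows of CTSC, CTSL, NPC2 and SNX21, among the members with the largest changes at 20 µM, did not hold it. These are matches of letters and were not tested as binding sites. Averaged over the statins at 20 µM in MiaPaCa-2, where 67.8% of all genes were called, 4 of the 11 holders rose and 1 fell, with a median of 0.16. Of the 39 members without the core, 20 rose and 4 fell, with a median of 0.32. In PANC-1, where 61.9% of all genes were called, the medians were 0.24 and 0.24. At 2 µM in MiaPaCa-2, where 51% of all genes were called by the mean of the statins, 2 of the 11 holders rose and 5 fell, with a median of -0.23, beside 14 and 7 of the 39 others, with a median of 0.10. The members without a window were ATP6V0E1, CTSB, CTSK, CTSS, HEXA, LAMP2, SNX17, SNX19, VPS18, VPS26A, VPS28, VPS37A and VPS53.

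Across all libraries the members ranged from a mean of 1.5 to 441 FPKM, with a median of 55.3. The highest mean in each role belonged to CTSD among the cathepsins (441), SNX3 among the sorting nexins without a BAR domain (377), ATP6V0E1 in the V0 sector (284), NPC2 of the cholesterol exporters (221) and LAMP2 of the membrane proteins (178). The leading V1 subunit had 163 FPKM, the leading retromer subunit 138, and the leading ESCRT and HOPS or CORVET subunits 57.9 and 55.1.

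At 20 µM more members rose than fell with every statin in both lines. In MiaPaCa-2, fluvastatin raised 32 members and lowered 7, where 65.4% of all genes tested were called, 32.9% of them up and 32.5% down. Lovastatin raised 26 and lowered 6, against 58.9% of all genes called (28.8% up, 30.1% down), and simvastatin raised 31 and lowered 11, against 65.3% (32.2% up, 33.1% down). The share of members called was 61.9%, 50.8% and 66.7% with the 3 statins in turn, near that of all genes. The direction differed: the median change of the members was 0.26, 0.25 and 0.33, and that of all genes 0.03, 0.01 and 0.01. Among members, 7, 6 and 9 rose by 2-fold or more, where 12.5%, 11.3% and 12.1% of all genes did so.

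In PANC-1, fluvastatin at 20 µM raised 32 members and lowered 7, where 63.4% of all genes were called (32.5% up, 31% down). Lovastatin raised 19 and lowered 7, against 46.3% (23.9% up, 22.4% down), and simvastatin raised 28 and lowered 11, against 59.5% (29.4% up, 30.2% down). The members' medians were 0.31, 0.14 and 0.20, and those of all genes 0.02, 0.00 and -0.01. Without the outlying simvastatin replicate 3, 37 members were called with simvastatin, 29 of them up. The 3 statins of a line and dose share 1 control group, so their changes are given side by side and not as repeated evidence. With every statin at 20 µM, 18 members rose and 3 fell in MiaPaCa-2, and 13 rose and 1 fell in PANC-1. The background of genes called the same way with every statin was 18.6% up and 21.1% down in MiaPaCa-2, and 16.3% and 14.9% in PANC-1.

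**Figure D1:**
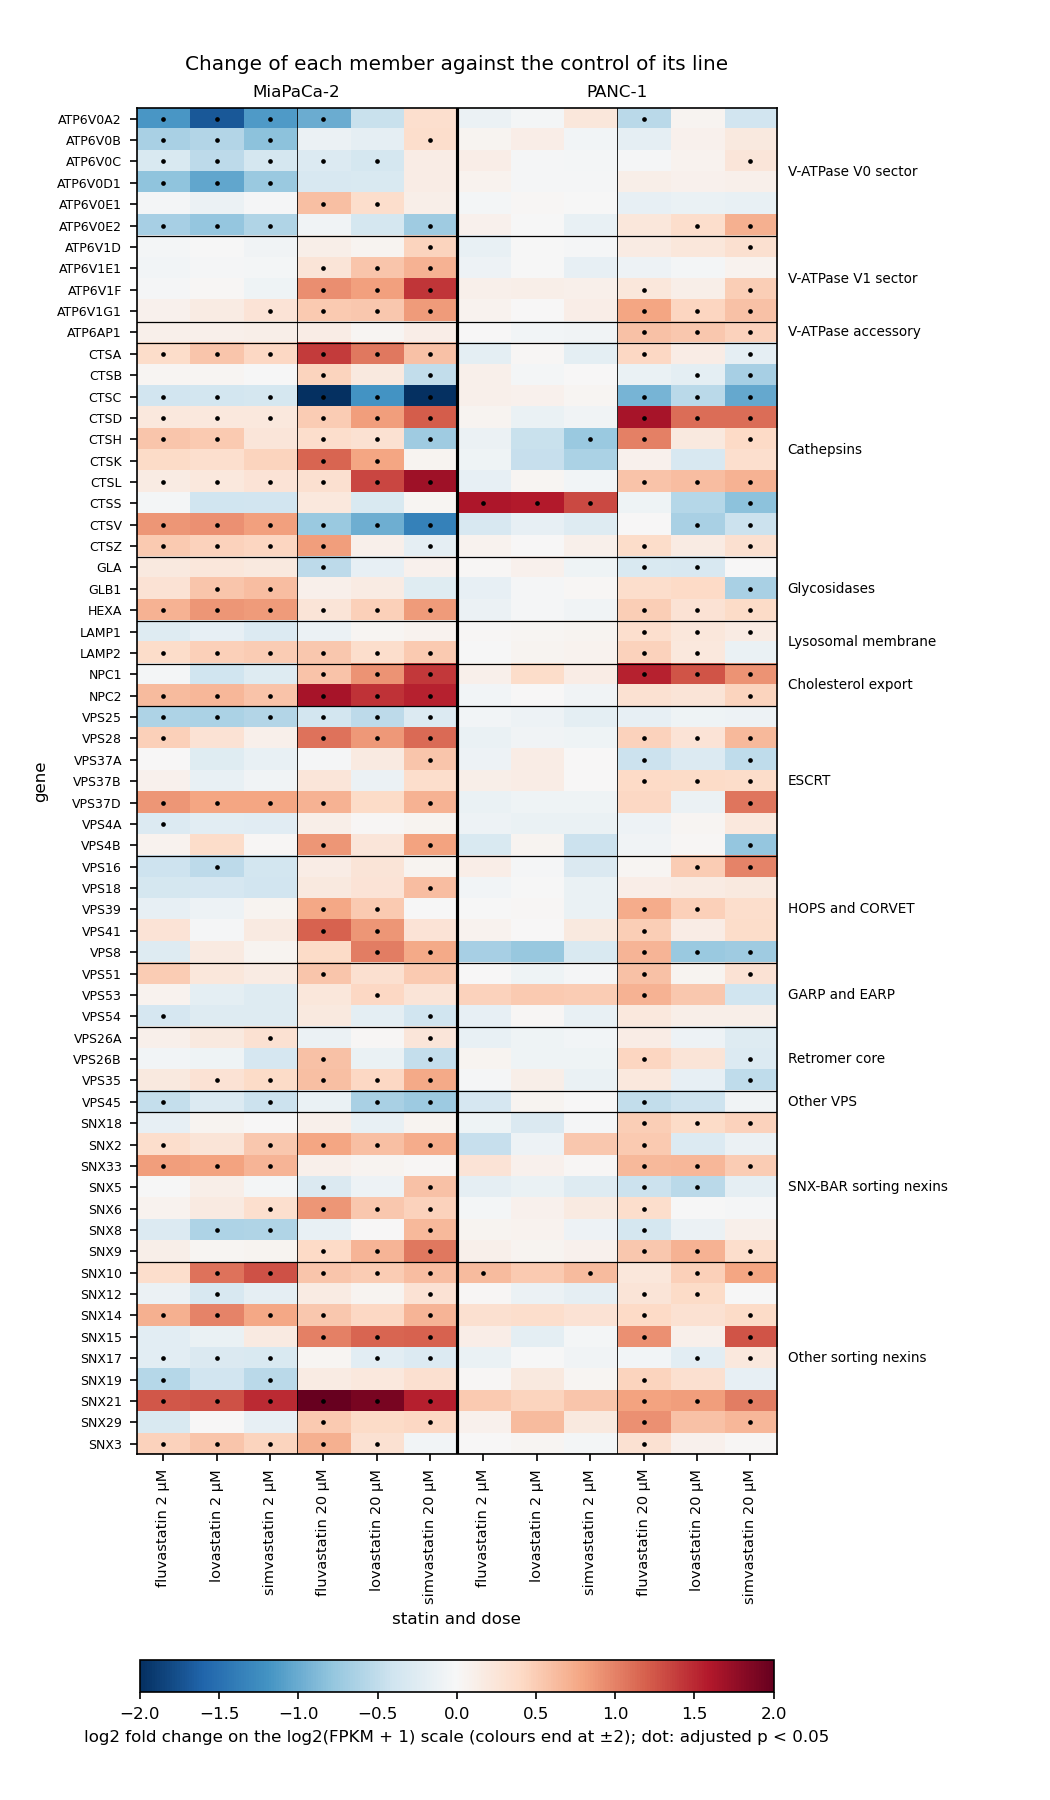
Change of each of the 63 members against the control of its line, in columns for the 3 statins at 2 and 20 µM, as log2 fold change with colours ending at ±2 and dots for an adjusted p under 0.05. Most dots at 20 µM lie on increases, the V0 rows of MiaPaCa-2 are lower at 2 µM, and PANC-1 at 2 µM has few dots.

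The proteases of the lysosome did not move as 1 block. Of the 10 cathepsins measured in MiaPaCa-2 at 20 µM, 7 rose and 2 fell with fluvastatin, 5 rose and 2 fell with lovastatin, and 3 rose and 5 fell with simvastatin. In PANC-1, 5 rose and 1 fell, 2 rose and 3 fell, and 4 rose and 5 fell. The shares of all genes called were 65.4%, 58.9% and 65.3% in MiaPaCa-2 and 63.4%, 46.3% and 59.5% in PANC-1. CTSD and CTSL rose and CTSC fell with every statin in both lines.

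CTSD encodes the main aspartic protease of the lysosome. In MiaPaCa-2 its level was 162.2 and 157.0 FPKM in the controls, 234.6, 218.0 and 232.1 with fluvastatin at 20 µM, 276.3 and 296.0 with lovastatin, and 383.1, 385.7 and 344.3 with simvastatin. Every treated library lay above both controls, and the simvastatin libraries were the highest. The changes were 0.51 ± 0.06 (adjusted p = 3.26e-06), 0.84 ± 0.07 (4.80e-08) and 1.21 ± 0.06 (1.13e-10). In PANC-1, CTSD had 426.6, 387.0 and 354.3 FPKM in the controls, 1243, 1205 and 1230 with fluvastatin, 862.7, 829.4 and 848.6 with lovastatin, and 835.4, 829.4 and 855.3 with simvastatin. The fluvastatin libraries were the highest there, and no 20 µM library overlapped the controls. The changes were 1.66, 1.12 and 1.11, each ± 0.05 (adjusted p = 9.91e-15, 1.05e-11 and 7.55e-12). CTSD holds the E-box shown above.

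CTSL encodes a cysteine endopeptidase that works in the lysosome and, in some tumour cells, outside the cell. In MiaPaCa-2 it had 127.7 and 117.0 FPKM in the controls, 154.6, 143.4 and 163.5 with fluvastatin at 20 µM, 307.6 and 314.3 with lovastatin, and 392.2, 387.0 and 409.6 with simvastatin. Fluvastatin libraries lay just above the controls, while lovastatin and simvastatin libraries lay far above both. The changes were 0.33 (adjusted p = 1.20e-04), 1.34 (4.93e-11) and 1.69 (4.85e-13), each ± 0.06. In PANC-1, CTSL had 52.16, 58.86 and 79.9 FPKM in the controls and 86.5 to 120.6 over all 20 µM libraries. The changes were 0.57, 0.61 and 0.70, each ± 0.14 (adjusted p = 0.00192, 0.00181 and 4.00e-04). The PANC-1 controls spread widely but did not reach the 20 µM libraries.

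CTSC, also called dipeptidyl peptidase 1, trims amino-terminal dipeptides and activates serine proteases of immune cells. It showed the largest decrease of any member in MiaPaCa-2 at 20 µM. Its level was 475.9 and 475.9 FPKM in the controls, 90.27, 96.62 and 96.11 with fluvastatin, 206.3 and 209.7 with lovastatin, and 79.3, 75.18 and 74.03 with simvastatin. The changes were -2.32 (adjusted p = 1.42e-14), -1.19 (1.42e-10) and -2.63 (4.55e-15), each ± 0.06. In PANC-1 it had 116.4, 114.4 and 174.9 FPKM in the controls, 67.54, 72.96 and 66.24 with fluvastatin, 101.5, 93.94 and 78.99 with lovastatin, and 67.64, 88.83 and 44.91 with simvastatin. All 20 µM libraries of PANC-1 lay below all controls, the lovastatin libraries by the smallest margin. The changes were -0.94, -0.54 and -1.02, each ± 0.19 (adjusted p = 3.07e-04, 0.0257 and 1.58e-04). The lovastatin call was lost without control replicate 3 (-0.34) and without lovastatin replicate 3 (-0.44).

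CTSV, a close paralog of CTSL, fell with every statin at 20 µM in MiaPaCa-2 and rose there with every statin at 2 µM. Its controls had 27.88 and 18.53 FPKM, the 2 µM libraries 38.68 to 48.2, and the 20 µM libraries 12.43, 15.35 and 12.22 with fluvastatin, 13.35 and 9.075 with lovastatin, and 7.097, 9.213 and 8.788 with simvastatin. The controls thus lay between the doses without touching either. The changes at 20 µM were -0.74 (adjusted p = 0.00167), -0.98 (4.07e-04) and -1.35 (5.66e-06), with SE of 0.18 to 0.19, and at 2 µM 0.89, 0.91 and 0.83. The controls differed by nearly the size of these changes: without control replicate 1 the fluvastatin change at 20 µM was -0.45 and no longer called, and without control replicate 2 the simvastatin change at 2 µM was 0.55 and still called. In PANC-1, CTSV fell with lovastatin (-0.64) and simvastatin (-0.43) and had 0.01 with fluvastatin. Reads of CTSL and CTSV could be split between the paralogs by the authors' counting, so the level of each is uncertain to that extent.

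CTSA encodes the serine carboxypeptidase that shields β-galactosidase and neuraminidase from degradation. In MiaPaCa-2 it went from 159.4 and 133.0 FPKM in the controls to 389.5, 389.5 and 381.8 with fluvastatin at 20 µM, 286.4 and 322.2 with lovastatin, and 228.3, 228.3 and 204.8 with simvastatin. All treated libraries lay above the controls, in the order fluvastatin, lovastatin, simvastatin, the reverse of the order for CTSD and CTSL. The changes were 1.40 (adjusted p = 1.06e-10), 1.06 (1.80e-08) and 0.59 (3.61e-06). In PANC-1, CTSA rose with fluvastatin (0.42, adjusted p = 5.67e-05), had 0.14 with lovastatin and fell with simvastatin (-0.17, adjusted p = 0.043). The last call was lost without any of 5 single libraries, with values of -0.13 to -0.19. CTSA overlaps PLTP in the annotation, and no source used here says whether counting used strand. The same limit holds for all 15 of the 63 members that overlap another protein-coding gene, among them NPC1, NPC2, GLB1, SNX5, VPS16 and VPS26B.

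CTSB, an abundant cysteine protease, rose with fluvastatin at 20 µM in MiaPaCa-2 (0.45 ± 0.12, adjusted p = 0.00317) and fell with simvastatin (-0.50, adjusted p = 0.0014). Its controls there had 201.7 and 181.0 FPKM, the fluvastatin libraries 250.9, 251.3 and 280.3, and the simvastatin libraries 146.9, 115.9 and 144.8, so the groups did not overlap. In PANC-1, CTSB fell with simvastatin from 241.5, 247.4 and 239.5 FPKM to 152.9, 166.7 and 140.5 (-0.66 ± 0.08, adjusted p = 1.03e-06). CTSH, an aminopeptidase, fell with simvastatin in MiaPaCa-2 from 38.67 and 37.45 FPKM to 22.67, 23.3 and 22.44 (-0.71, adjusted p = 3.43e-05). It rose with fluvastatin in PANC-1 from 32.19, 30.9 and 33.75 to 59.79, 67.77 and 71.62 (1.01 ± 0.15, adjusted p = 1.44e-05). CTSK, best known for cutting collagen in bone, rose with fluvastatin in MiaPaCa-2 from 4.818 and 4.034 FPKM to 12.56, 10.62 and 10.49 (1.17 ± 0.24, adjusted p = 4.50e-04). CTSZ, a carboxypeptidase, rose with fluvastatin in MiaPaCa-2 from 107.6 and 107.3 FPKM to 197.8, 185.7 and 193.2 (0.83, adjusted p = 2.43e-08) and had 0.10 with lovastatin. It fell there with simvastatin (-0.18, adjusted p = 0.0334), a call lost without any of 4 single libraries. In PANC-1, CTSZ rose with fluvastatin (0.37) and simvastatin (0.33).

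CTSS, a cysteine protease of antigen presentation, was called in PANC-1 and not in MiaPaCa-2, where its level was 0.0612 to 2.262 FPKM. In PANC-1 the controls had 3.187, 2.789 and 2.994 FPKM. At 2 µM the level was 13.74, 9.6 and 10.82 with fluvastatin, 11.17, 11.42 and 10.48 with lovastatin, and 7.41, 9.04 and 10.71 with simvastatin. All 2 µM libraries lay above all controls, with changes of 1.62, 1.59 and 1.32, each ± 0.27 (adjusted p = 0.00125, 0.002 and 0.0076). At 20 µM the level was back at 3.666, 3.477 and 1.548 with fluvastatin, 0.7141, 2.499 and 2.24 with lovastatin, and 0.6225, 1.574 and 1.781 with simvastatin. These 20 µM libraries overlapped the controls with fluvastatin (-0.08) and lay below them with lovastatin (-0.57) and simvastatin (-0.82, adjusted p = 0.0143). The simvastatin call was lost without simvastatin replicate 1 (-0.58). The response of CTSS at 2 µM was lower in MiaPaCa-2 than in PANC-1 by the test of that difference (-1.78, adjusted p = 0.00132). CTSS was the single member called with each statin at 2 µM in PANC-1, where 1.33% of all genes rose with each statin and 0.325% fell.

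**Figure D2:**
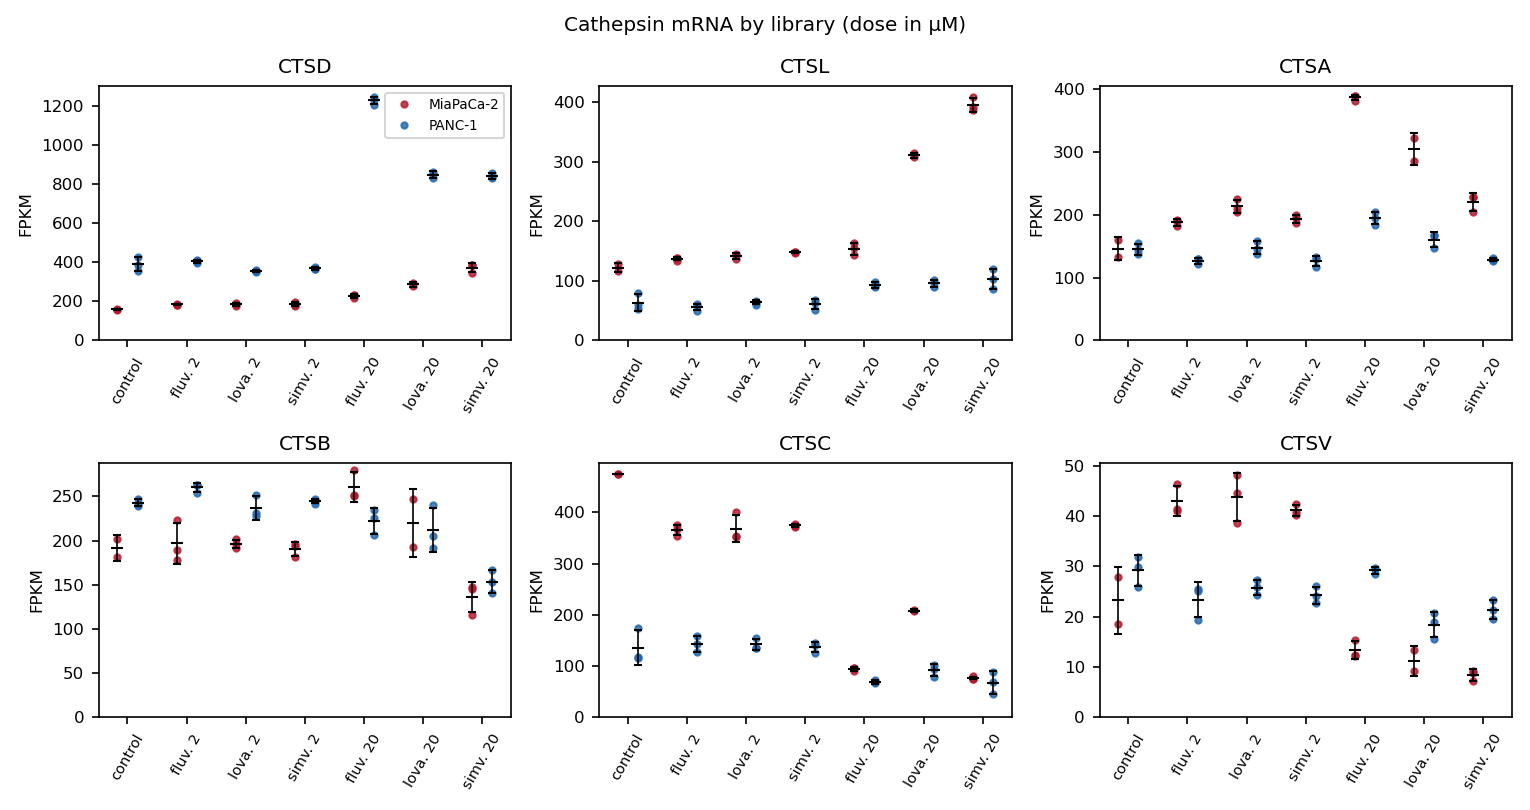
FPKM of CTSD, CTSL, CTSA, CTSB, CTSC and CTSV in each library of both lines, by statin and dose, with bars for the mean ± SD of a group. CTSD is above the control in every 20 µM library of both lines, CTSC is below it, and CTSV in MiaPaCa-2 lies above the controls at 2 µM and below them at 20 µM.

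Of the 3 glycosidases, HEXA rose with every statin at 20 µM in both lines. HEXA encodes the α subunit of β-hexosaminidase, which degrades GM2 ganglioside. In MiaPaCa-2 its level was 39.12 and 42.97 FPKM in the controls, 51.12, 47.34 and 49.61 with fluvastatin, 54.73 and 60.81 with lovastatin, and 72.36, 77.25 and 75.72 with simvastatin at 20 µM. At 2 µM it was 64.2 to 87.11, above every fluvastatin and lovastatin library at 20 µM. The changes were 0.70, 0.88 and 0.85 at 2 µM (adjusted p = 1.06e-04, 9.74e-06 and 1.38e-05) and 0.26, 0.48 and 0.86 at 20 µM. The fluvastatin call at 20 µM (adjusted p = 0.047) was lost without any single library, at 0.20 to 0.33. In PANC-1, HEXA had 83.15, 91.17 and 79.03 FPKM in the controls and 95.2 to 126.4 at 20 µM, with changes of 0.49, 0.28 and 0.39, and the lovastatin call was lost without lovastatin replicate 3 (0.22). GLA, the α-galactosidase, fell with fluvastatin in MiaPaCa-2 (-0.52, adjusted p = 0.00304). GLB1, the β-galactosidase that CTSA protects, fell with simvastatin in PANC-1 (-0.65, adjusted p = 0.00549), from 35.06, 45.17 and 61.91 FPKM to 37.73, 27.37 and 23.64, with overlapping groups.

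Both cholesterol exporters rose in both lines when averaged over the statins at 20 µM. NPC1, the membrane transporter, had 19.9 and 26.95 FPKM in the MiaPaCa-2 controls, 36.44, 31.54 and 37.43 with fluvastatin at 20 µM, 48.03 and 40.46 with lovastatin, and 76.1, 53.24 and 62.75 with simvastatin. The order of the groups followed that of CTSD and CTSL, and none overlapped the controls. The changes were 0.58 ± 0.20 (adjusted p = 0.0183), 0.90 (0.00221) and 1.41 (1.28e-05). The fluvastatin call was lost without control replicate 1 (0.37) and without fluvastatin replicate 3 (0.53). In PANC-1, NPC1 had 24.22, 27.58 and 28.15 FPKM in the controls, 72.76, 90.55 and 76.14 with fluvastatin, 66.42, 68.19 and 60.43 with lovastatin, and 50.16, 58.64 and 43.03 with simvastatin. All 20 µM libraries lay above the controls, in the opposite order of statins to MiaPaCa-2, with changes of 1.54, 1.26 and 0.89, each ± 0.21 (adjusted p = 4.45e-06, 8.92e-05 and 0.00139). The difference between the lines over the mean of the statins was -0.27 for NPC1 and was not called.

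NPC2 is the soluble protein that passes cholesterol to NPC1. In MiaPaCa-2 it had 143.1 and 163.5 FPKM in the controls, 222.4 to 246.1 at 2 µM, and 487.3, 462.4 and 500.9 with fluvastatin, 428.2 and 406.3 with lovastatin, and 426.6, 446.3 and 464.6 with simvastatin at 20 µM. The level thus stepped up at each dose with no overlap. The changes were 0.63, 0.66 and 0.57 at 2 µM and 1.65 (adjusted p = 9.87e-13), 1.44 (2.57e-11) and 1.54 (2.08e-12) at 20 µM. In PANC-1, NPC2 had 122.6, 100.3 and 141.1 FPKM in the controls and 184.5, 185.9 and 129.5 with simvastatin at 20 µM, with overlapping groups. It rose there with simvastatin (0.45 ± 0.13, adjusted p = 0.00605) and had 0.30 and 0.26 with fluvastatin and lovastatin. The PANC-1 mean over statins, 0.33, lost its call without control replicate 2 (0.20).

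LAMP2, a glycoprotein of the lysosomal membrane, rose with every statin in MiaPaCa-2, from 89.29 and 94.12 FPKM to 113.7 to 137 at 2 µM and 112.5 to 147 at 20 µM. The changes were 0.36, 0.48 and 0.52 at 2 µM and 0.54, 0.35 and 0.53 at 20 µM. LAMP1 was not called in MiaPaCa-2. In PANC-1, LAMP1 rose from 131.8, 134.7 and 117.6 FPKM to 140 to 165.3 at 20 µM, by 0.33, 0.23 and 0.17. The simvastatin call of LAMP1 was lost without the outlying simvastatin replicate 3 (0.13) and without control replicate 3 (0.11). LAMP2 in PANC-1 rose with fluvastatin (0.45) and lovastatin (0.21, and 0.14 without control replicate 3) and had -0.13 with simvastatin.

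**Figure D3:**
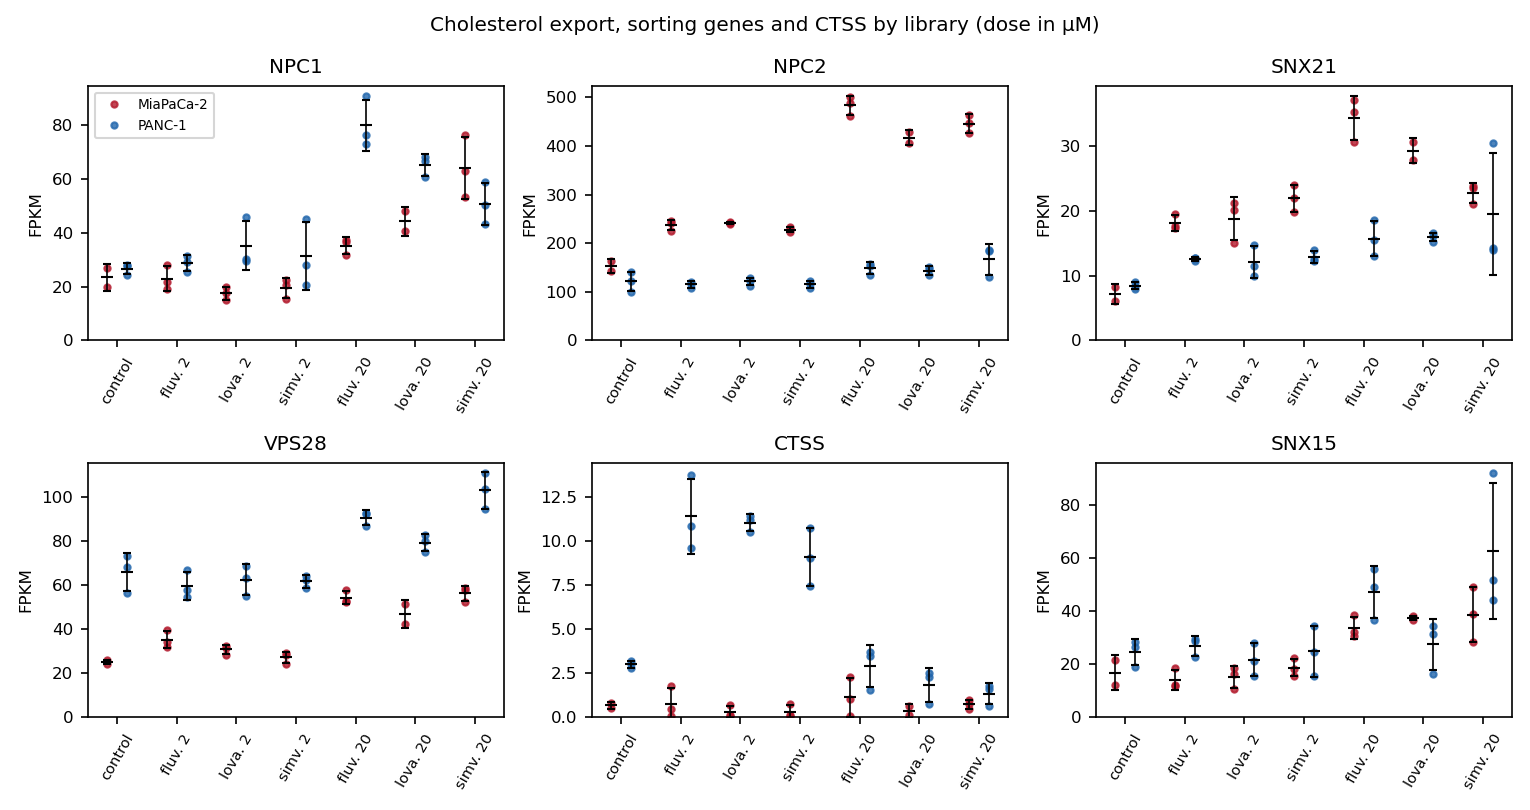
FPKM of NPC1, NPC2, SNX21, VPS28, CTSS and SNX15 in each library of both lines, by statin and dose, with bars for the mean ± SD of a group. NPC2 in MiaPaCa-2 steps up at 2 µM and again at 20 µM, and CTSS in PANC-1 is high at 2 µM and near or below the control at 20 µM.

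The proton pump was measured through 4 V1 and 6 V0 subunits and ATP6AP1. In MiaPaCa-2 at 20 µM, 3, 3 and 4 of the 4 V1 subunits rose with fluvastatin, lovastatin and simvastatin, with medians of 0.39, 0.55 and 0.77, while 1 of the 6 V0 subunits rose with each statin and 2, 1 and 1 fell. In PANC-1, 2, 1 and 3 of the V1 subunits rose and none fell, with medians of 0.20, 0.17 and 0.40. Of the V0 subunits there, 0, 1 and 2 rose and 1, 0 and 0 fell, with medians of -0.09, 0.08 and 0.15. All genes were called at 65.4%, 58.9% and 65.3% in MiaPaCa-2 and 63.4%, 46.3% and 59.5% in PANC-1, and the sectors were not tested against each other. The V1 subunit ATP6V1F had 138.1 and 144.2 FPKM in the MiaPaCa-2 controls, 278.0, 262.5 and 265.6 with fluvastatin, 241.5 and 260.4 with lovastatin, and 390.7, 389.5 and 363.5 with simvastatin. No 20 µM library overlapped the controls, and the changes were 0.92 ± 0.06 (adjusted p = 1.71e-09), 0.82 (3.40e-08) and 1.43 (8.45e-12). In PANC-1, ATP6V1F rose with simvastatin from 101.5, 104.8 and 113.9 FPKM to 149.9, 139.0 and 162.4 (0.49). ATP6V1G1, the peripheral stalk subunit whose promoter holds the long palindrome, rose with every statin in both lines. Its changes were 0.52, 0.54 and 0.85 in MiaPaCa-2 and 0.78, 0.43 and 0.59 in PANC-1.

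ATP6V1E1, the other peripheral stalk subunit measured, rose in MiaPaCa-2 by 0.25, 0.55 and 0.69, and the fluvastatin call was lost without control replicate 2 (0.21). In PANC-1 it had -0.10, -0.03 and 0.07 and was not called. ATP6V1D, of the central stalk, rose with simvastatin in MiaPaCa-2 (0.45). ATP6AP1, an accessory subunit needed to assemble the pump, showed the reverse pattern of lines. It rose in PANC-1 from 124.2, 127.0 and 108.6 FPKM to 189.6, 173.5 and 177.3 with fluvastatin, 173.1, 180.2 and 171.8 with lovastatin, and 176.1, 167.5 and 153.7 with simvastatin, by 0.59, 0.54 and 0.46, each ± 0.07 (adjusted p = 1.13e-06, 6.07e-06 and 2.41e-05). In MiaPaCa-2 it had 0.15, 0.04 and 0.13 and was not called.

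At 2 µM most V0 subunits fell in MiaPaCa-2. Fluvastatin raised 16 members and lowered 12 there, where 43.2% of all genes were called (20.9% up, 22.3% down). Lovastatin raised 17 and lowered 11, against 45.5% (21.9% up, 23.5% down), and simvastatin 20 and 11, against 45.5% (21.7% up, 23.8% down). Of the 6 V0 subunits, 5 fell with each statin, with medians of -0.66, -0.68 and -0.67, where the medians of all genes were -0.06, -0.05 and -0.05. In PANC-1 at 2 µM no V0 subunit was called by limma, and none had an unadjusted p under 0.05, with changes of -0.15 to 0.22.

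ATP6V0A2, an isoform of the a subunit that helps carry protons, had 9.034 and 12.36 FPKM in the MiaPaCa-2 controls, 3.325, 5.377 and 3.984 with fluvastatin at 2 µM, 3.737, 1.778 and 2.457 with lovastatin, and 2.769, 4.771 and 5.851 with simvastatin. All 2 µM libraries lay below both controls, with changes of -1.17 ± 0.25, -1.70 and -1.13 (adjusted p = 0.00154, 5.06e-05 and 0.00174). ATP6V0D1, which couples the V0 ring to the V1 stalk, had 120.0 and 95.78 FPKM in the controls, 61.61, 59.79 and 62.33 with fluvastatin, 39.07, 58.72 and 59.98 with lovastatin, and 73.43, 57.05 and 62.49 with simvastatin, again without overlap (-0.80 ± 0.16, -1.04 and -0.74). ATP6V0B, a subunit of the proteolipid ring, went from 121.1 and 115.1 FPKM to 60.15 to 82.86 (-0.65, -0.58 and -0.82). ATP6V0E2, a small membrane subunit, went from 23.66 and 23.14 FPKM to 12.11 to 17.99 (-0.66, -0.77 and -0.61). The calls of these 4 subunits lasted when each library was left out in turn, while those of the ring subunit ATP6V0C (-0.30, -0.52 and -0.35) did so with lovastatin alone. ATP6V0E1 was not called, at -0.03, -0.11 and -0.02. Its counting is uncertain, since the table also holds the pseudogene ATP6V0E1P2 at 46.3 to 130 FPKM in MiaPaCa-2. The same limit holds for the members ATP6V1E1, SNX5 and VPS26A. Their pseudogenes ATP6V1E1P1, SNX5P1 and VPS26AP1 had up to 41.4, 22.1 and 14.1 FPKM in MiaPaCa-2.

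In MiaPaCa-2 the V0 subunits were higher at 20 µM than at 2 µM over the mean of the statins, but not all with each statin. The differences ran from 0.03 to 0.64 with fluvastatin, 0.17 to 1.26 with lovastatin and -0.11 to 1.46 with simvastatin. With simvastatin, ATP6V0E2 had means of 13.92 FPKM at 20 µM and 15.03 at 2 µM. At 20 µM the V0 median against the controls was -0.20 with fluvastatin, -0.33 with lovastatin and 0.15 with simvastatin. Averaged over the statins, all 6 were called higher at 20 than at 2 µM, by 0.23 to 0.96, where 78.5% of all genes were called (41.3% up, 37.2% down). In PANC-1 by the same contrast, 1 V0 subunit was higher and 2 were lower, with a median of 0.03, where 74.1% of all genes were called. In MiaPaCa-2, simvastatin at 20 µM brought ATP6V0B to 157.1, 144.3 and 149.3 FPKM, above both controls (0.34), and ATP6V0A2 to 13.21, 12.53 and 15.1, also above both but not called (0.33). ATP6V0A2 remained low with fluvastatin, at 5.598, 4.476 and 4.371 FPKM (-1.0, adjusted p = 0.00236). In the test of the difference between lines at 2 µM, over the mean of the statins, 15 members were higher in MiaPaCa-2 and 10 lower, with 40.5% of all genes called. The V0 values were -1.35 for ATP6V0A2 (95% interval -1.90 to -0.80), -0.73 for ATP6V0B, -0.86 for ATP6V0D1, -0.66 for ATP6V0E2, -0.41 for ATP6V0C and -0.05 for ATP6V0E1, and all but the last were called. The ATP6V0C call was lost without MiaPaCa-2 control replicate 1 or PANC-1 control replicate 3.

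NDRG1, a gene induced by low oxygen, moved with these groups. Its mean in MiaPaCa-2 was 9.56 FPKM in the controls, 261, 240 and 244 with the 3 statins at 2 µM, and 84.8, 88.4 and 128 at 20 µM. In PANC-1 it was 44.4 FPKM in the controls, 61.2, 61.6 and 82.5 at 2 µM, and 93.9, 107 and 63.7 at 20 µM. Its part in the MiaPaCa-2 results at 2 µM was not tested.

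**Figure D4:**
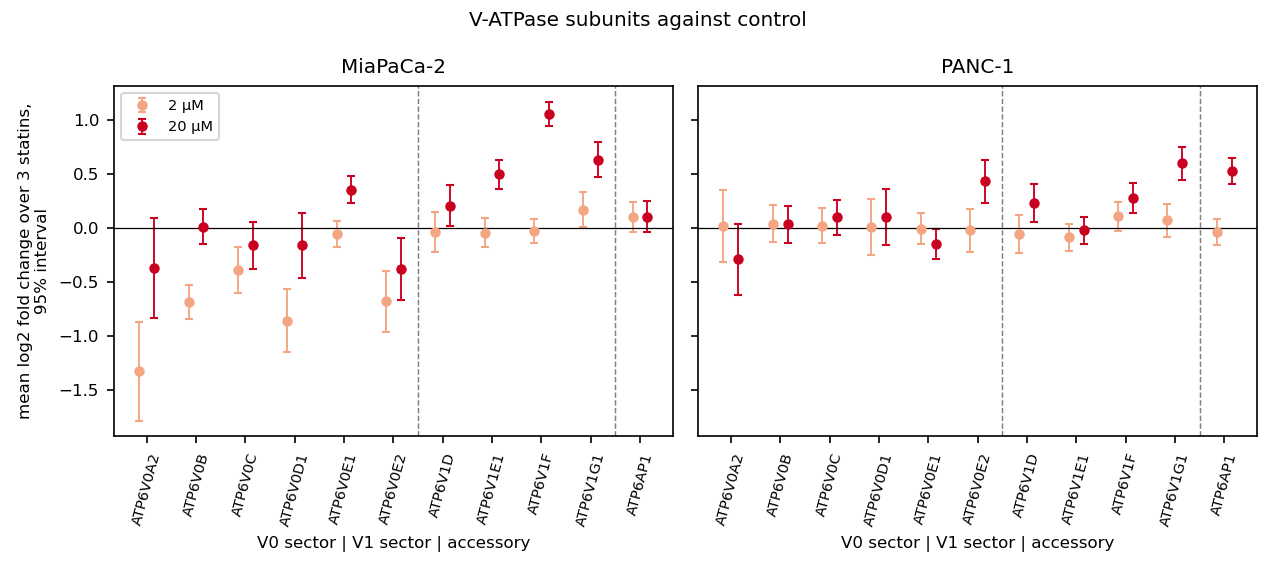
Mean log2 fold change of each proton pump subunit over the 3 statins against the control of its line, at 2 and 20 µM, with 95% intervals, grouped by V0 sector, V1 sector and accessory subunit. In MiaPaCa-2 the V0 subunits except ATP6V0E1 lie below 0 at 2 µM, and ATP6V1F, ATP6V1G1 and ATP6V1E1 lie above 0 at 20 µM.

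Other members also differed from the controls at 2 µM in MiaPaCa-2. All statins were set against the same 2 control libraries, so a trait of those libraries cannot be told apart from an effect of the dose. With every statin at 2 µM, 13 members rose and 8 fell, where the background was 16.8% and 16.7% of all genes. Besides CTSV, HEXA and NPC2, the increases with every statin included SNX21 (1.24, 1.27 and 1.5), SNX14 (0.71, 1.00 and 0.78), SNX33 (0.84, 0.81 and 0.69), SNX3 (0.46, 0.55 and 0.44), CTSA (0.36, 0.55 and 0.41, the first 0.24 and still called without control replicate 2) and CTSZ (0.53, 0.47 and 0.43). CTSD and CTSL rose slightly, by 0.20 to 0.21 and by 0.16 to 0.28, and the CTSD calls (0.18, 0.19 and 0.19) and the CTSL calls with fluvastatin (0.10) and lovastatin (0.15) were lost without control replicate 2. VPS37D, an ESCRT-I subunit, had 0.89, 0.79 and 0.80, and all of its calls were lost without control replicate 2 (0.64, 0.55 and 0.55). The decreases outside the V0 sector were those of CTSC (-0.38, -0.37 and -0.34), VPS25 (-0.61, -0.63 and -0.59) and SNX17 (-0.22, -0.29 and -0.30), and those of SNX17, an adaptor for receptor recycling, were lost without control replicate 2 (-0.19, -0.25 and -0.27). In PANC-1 at 2 µM fluvastatin raised 2 members, where 3.95% of all genes were called, lovastatin raised 1, against 2.81%, and simvastatin raised 2 and lowered 1, against 3.97%. Besides CTSS, these were SNX10 with fluvastatin and simvastatin (0.63 each, both lost without control replicate 2, at 0.53, and without some other libraries) and CTSH, which fell with simvastatin (-0.75, adjusted p = 0.0076).

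Among the VPS and SNX genes in MiaPaCa-2 at 20 µM, SNX21 had the largest change with each statin. SNX21 is a sorting nexin that binds phosphoinositides on early endosomes. In MiaPaCa-2 it had 6.077 and 8.294 FPKM in the controls, 15.1 to 23.97 at 2 µM, and 37.19, 30.69 and 35.25 with fluvastatin, 30.7 and 27.94 with lovastatin, and 23.57, 21.07 and 23.92 with simvastatin at 20 µM. No treated library reached down to the controls, and the changes at 20 µM were 2.12 ± 0.15 (adjusted p = 3.93e-09), 1.90 (7.21e-08) and 1.55 (1.82e-07). In PANC-1, SNX21 had 9.015, 8.004 and 8.447 FPKM in the controls, 15.52, 18.57 and 13.11 with fluvastatin, 16.57, 16.13 and 15.28 with lovastatin, and 14.25, 13.92 and 30.45 with simvastatin. All treated libraries lay above the controls, and simvastatin replicate 3 lay far above its group. The changes were 0.81, 0.84 and 1.02, and the last was 0.67 without that replicate. SNX21 overlaps ACOT8 in the annotation.

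ESCRT complexes sort ubiquitinated cargo into the vesicles of multivesicular bodies. In MiaPaCa-2 at 20 µM, 3, 1 and 4 of 7 ESCRT members rose with the 3 statins in turn and 1 fell with each, and in PANC-1 2, 2 and 3 rose and 1, 0 and 2 fell. Of all genes, 65.4%, 58.9% and 65.3% were called in MiaPaCa-2 and 63.4%, 46.3% and 59.5% in PANC-1. VPS28, an ESCRT-I subunit, rose with every statin in both lines. In MiaPaCa-2 it went from 24.17 and 25.66 FPKM to 52.0, 52.82 and 57.67 with fluvastatin, 51.06 and 42.07 with lovastatin, and 57.46, 52.22 and 58.51 with simvastatin (1.09 ± 0.12, 0.87 and 1.14; adjusted p = 5.58e-07, 2.48e-05 and 3.63e-07). In PANC-1 it went from 73.04, 68.3 and 56.17 FPKM to 86.5, 92.29 and 92.74, to 74.89, 82.71 and 79.85, and to 103.5, 110.8 and 94.24 (0.46, 0.27 and 0.64). Libraries at 20 µM lay above controls in both lines, but the lovastatin call in PANC-1 was lost without control replicate 3 (0.16), lovastatin replicate 2 (0.24) or lovastatin replicate 3 (0.26). VPS25, of ESCRT-II, fell in MiaPaCa-2 from 61.55 and 62.04 FPKM by 0.37, 0.53 and 0.27 at 20 µM, and the simvastatin call was lost without some single libraries (-0.19 to -0.28). In PANC-1 VPS25 was not called. VPS4B, an ATPase that takes ESCRT-III apart, rose in MiaPaCa-2 with fluvastatin (0.88) and simvastatin (0.81) and fell in PANC-1 with simvastatin (-0.77, adjusted p = 2.92e-04). VPS37B rose in PANC-1 with each statin (0.40, 0.38 and 0.36).

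HOPS and CORVET tether endosomes before fusion. In MiaPaCa-2 at 20 µM, 2, 3 and 2 of their 5 measured members rose and none fell, and in PANC-1 3, 2 and 1 rose and 0, 1 and 1 fell, beside 65.4%, 58.9% and 65.3% and 63.4%, 46.3% and 59.5% of all genes called in the lines in turn. VPS39, a HOPS subunit, rose with fluvastatin (0.78) and lovastatin (0.53, lost without lovastatin replicate 2) in MiaPaCa-2 and by 0.74 and 0.48 in PANC-1, the last lost without lovastatin replicate 3 (0.32) or control replicate 1 (0.43). VPS41, its partner in HOPS, rose with fluvastatin in MiaPaCa-2 (1.18) and PANC-1 (0.50), where the call was lost without any of 4 single libraries (0.36 to 0.49). VPS8, of CORVET, went opposite ways in PANC-1, with 53.6, 31.17 and 38.17 FPKM in the controls, 63.11, 65.94 and 65.7 with fluvastatin (0.69), 27.85, 19.83 and 23.82 with lovastatin (-0.74), and 17.01, 22.67 and 35.27 with simvastatin (-0.72). The controls of VPS8 spread widely, and each call was lost without 1 library or another: fluvastatin's without control replicate 2 (0.51), lovastatin's without lovastatin replicate 2 or control replicate 1, and simvastatin's without simvastatin replicate 1 or control replicate 1. VPS16, a core subunit of both complexes, rose in PANC-1 with lovastatin (0.50, lost without any of 5 single libraries at 0.45 to 0.55) and simvastatin (0.99, and 0.65 without the outlying replicate 3).

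Retromer returns receptors from endosomes to the Golgi and cell surface. Its scaffold subunit VPS35 rose with every statin in MiaPaCa-2, from 130.4 and 151.7 FPKM to 180.0 to 248.7 (0.60, 0.41 and 0.75), and the lovastatin call was lost without control replicate 1 (0.30). In PANC-1, VPS35 fell with simvastatin (-0.50), a call lost without simvastatin replicate 3 (-0.29) or control replicate 2 (-0.41). SNX3, the cargo adaptor of retromer, rose in MiaPaCa-2 from 306.2 and 307.6 FPKM to 518.1, 503.1 and 492.1 with fluvastatin (0.71, adjusted p = 8.63e-11) and to 377.8 and 379.0 with lovastatin (0.30), and had -0.05 with simvastatin. Of the 3 GARP members, which receive vesicles at the Golgi, VPS51 rose with fluvastatin in both lines (0.56 and 0.59), though the MiaPaCa-2 call was lost without fluvastatin replicate 3 (0.39), fluvastatin replicate 2 (0.62) or either control. VPS53 rose with fluvastatin in PANC-1 (0.69), a call lost without fluvastatin replicate 2 (0.53), fluvastatin replicate 1 (0.64) or control replicate 3 (0.65). VPS45, a Sec1/Munc18 protein of endosomal fusion, fell in MiaPaCa-2 with lovastatin (-0.65) and simvastatin (-0.72).

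SNX-BAR proteins bend membranes into tubules. In MiaPaCa-2 at 20 µM, 3, 3 and 5 of the 7 measured rose and 1, 0 and 0 fell, and in PANC-1 5, 3 and 3 rose and 2, 1 and 0 fell. The background of called genes was 65.4%, 58.9% and 65.3% in MiaPaCa-2 and 63.4%, 46.3% and 59.5% in PANC-1. The retromer-linked SNX2 and SNX6 rose with each statin in MiaPaCa-2, SNX2 by 0.79, 0.60 and 0.74 and SNX6 by 0.88, 0.55 and 0.46. SNX9, which acts at the plasma membrane with dynamin, rose with each statin in both lines, by 0.40, 0.67 and 1.06 in MiaPaCa-2 and 0.53, 0.69 and 0.35 in PANC-1. The last of these calls was lost when limma was fitted to the compared groups alone (adjusted p = 0.0673). Its relatives SNX18 and SNX33 rose with each statin in PANC-1 and were not called in MiaPaCa-2, SNX18 from 4.05, 3.319 and 4.484 FPKM to 5.217 to 6.607 (0.49, 0.38 and 0.46) and SNX33 from 6.502, 5.097 and 5.432 to 7.794 to 10.56 (0.65, 0.67 and 0.50). The lovastatin call of SNX18 was lost without control replicate 2 (0.29). In MiaPaCa-2, SNX33 had 3.171 and 3.549 FPKM in the controls, 5.043 to 7.307 at 2 µM and 3.056 to 4.032 at 20 µM, so it was high at the low dose and overlapped the controls at the high one. SNX15, a sorting nexin with a microtubule-interacting domain, had 12.05 and 21.57 FPKM in the MiaPaCa-2 controls and 28.27 to 49.01 at 20 µM. Its changes of 1.01, 1.16 and 1.18 all lost their calls without control replicate 1, at 0.61, 0.77 and 0.78. In PANC-1, SNX15 rose with simvastatin (1.26, adjusted p = 0.00252).

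Setting 20 against 2 µM over the mean of the statins does not use the controls. In MiaPaCa-2, 38 members were higher and 12 lower at 20 µM, where 78.5% of all genes were called (41.3% up, 37.2% down), with a median of 0.30 for members and 0.05 for all genes. In PANC-1, 34 were higher and 8 lower, where 74.1% were called (36.8% up, 37.3% down), with medians of 0.18 and -0.01. The largest increases in MiaPaCa-2 were NPC1 (1.19 ± 0.11, adjusted p = 3.54e-08), SNX15 (1.17, 2.32e-06) and ATP6V1F (1.09, 2.61e-14), and the largest decreases CTSV (-1.90 ± 0.09, 1.83e-11), CTSC (-1.68, 4.93e-17) and SNX33 (-0.72, 2.45e-07). In PANC-1 they were CTSD (1.34, 3.91e-17), NPC1 (1.03, 4.85e-07) and CTSH (0.97, 1.51e-08), and CTSS (-2.0 ± 0.15, 1.67e-09), CTSC (-0.91, 5.86e-07) and VPS37A (-0.43, 0.0013). SNX33 was higher at 20 than at 2 µM in PANC-1 (0.48) and lower in MiaPaCa-2. Of the 50 calls in MiaPaCa-2, 49 lasted when each library was left out in turn, and of the 42 in PANC-1, 38 did. Of the calls for the mean of the statins at 20 µM against the controls, 25 of 36 lasted in MiaPaCa-2 and 27 of 35 in PANC-1.

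The 3 statins were compared in pairs at matched dose, 3 pairs at each of 2 doses in each line. At 20 µM in MiaPaCa-2, fluvastatin gave 11 members a higher and 5 a lower level than lovastatin, where 23.5% of all genes were called, and 19 higher and 19 lower than simvastatin, where 56.2% were called. Simvastatin gave 17 a higher and 10 a lower level than lovastatin, where 37.3% were called. CTSL was lower with fluvastatin than with lovastatin (-1.01, 95% interval -1.14 to -0.89, adjusted p = 3.36e-09) and than with simvastatin (-1.36, -1.47 to -1.25, 4.51e-12). CTSC was lower with fluvastatin than with lovastatin (-1.13, -1.25 to -1.01, 5.65e-10) and lower with simvastatin than with lovastatin (-1.44, -1.56 to -1.32, 4.14e-11). CTSZ was higher with fluvastatin than with lovastatin (0.73, 0.59 to 0.88, 1.05e-06). CTSH was higher with fluvastatin than with simvastatin (1.06, 0.85 to 1.27, 1.88e-07) and lower with simvastatin than with lovastatin (-1.02, -1.25 to -0.78, 3.30e-06).

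Of the other members that differed between statins in MiaPaCa-2, CTSK was higher with fluvastatin than with simvastatin (1.11, 0.66 to 1.57, adjusted p = 3.59e-04) and so was the retromer subunit VPS26B (1.05, 0.73 to 1.37, 2.49e-05). ATP6V0A2 was lower with fluvastatin than with simvastatin (-1.33, -1.81 to -0.86, 1.08e-04). SNX5, a SNX-BAR protein of retromer-linked tubules, was lower with fluvastatin than with simvastatin (-0.87, -1.02 to -0.71, 7.21e-08) and higher with simvastatin than with lovastatin (0.68, 0.50 to 0.86, 1.13e-05). Lovastatin in this line had n = 2, and several differences from it were lost without 1 of those libraries. These were VPS26B against fluvastatin (0.72, and 0.52 without lovastatin replicate 1), VPS4B against fluvastatin (0.63, and 0.41 without replicate 2), SNX8 against simvastatin (0.65, and 0.63 without replicate 1), and ATP6V0A2 against simvastatin (0.77, and 0.79 and 0.75 without either).

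In PANC-1 at 20 µM, fluvastatin gave 12 members a higher and 1 a lower level than lovastatin (30.7% of all genes called), and 22 higher and 10 lower than simvastatin (47.5%). Simvastatin gave 10 a higher and 11 a lower level than lovastatin (38.5%). VPS8 was higher with fluvastatin than with lovastatin (1.42, 95% interval 0.94 to 1.91, adjusted p = 1.30e-04) and than with simvastatin (1.40, 0.92 to 1.89, 9.01e-05). CTSD was higher with fluvastatin than with either (0.53 and 0.54), and CTSH higher than with lovastatin (0.82, 0.50 to 1.14, 4.66e-04). Lovastatin and simvastatin, which differ by the methyl group, differed in GLB1 (simvastatin minus lovastatin -1.05, -1.43 to -0.66, 3.12e-04), VPS53 (-0.94, -1.44 to -0.44), VPS4B (-0.79, -1.10 to -0.47, 6.18e-04) and VPS37D (1.18, 0.77 to 1.58, 2.00e-04). SNX15 (1.16) and VPS16 (0.49) also differed in that pair, but without the outlying simvastatin replicate 3 they had 0.85 and 0.15 and were not called, and SNX15 had 0.84 without lovastatin replicate 3, also not called. Without it the fluvastatin minus simvastatin value of VPS16 went from -0.96 to -0.62.

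At 2 µM the pairs hardly differed by the calls of limma. In MiaPaCa-2 no member was called between fluvastatin and lovastatin or between simvastatin and lovastatin, where 0% and 0.293% of all genes were called, and 7 and 6 members had an unadjusted p under 0.05. Between fluvastatin and simvastatin, with 0.562% of all genes called, SNX10 was lower with fluvastatin (-0.93, 95% interval -1.28 to -0.57, adjusted p = 0.0283), a call lost without any of 5 single libraries. SNX10 is a sorting nexin that in osteoclasts acts with the proton pump. The members' differences ran from -0.73 to 0.53, from -0.93 to 0.37 and from -0.35 to 0.57 for fluvastatin minus lovastatin, fluvastatin minus simvastatin and simvastatin minus lovastatin. In PANC-1 no member was called in any pair, where 0.0116%, 0.0116% and 0% of all genes were, and 4, 7 and 4 members had an unadjusted p under 0.05. The differences there ran from -0.54 to 0.37, from -1.0 to 0.64 and from -0.48 to 0.64, so that statins acting alike was not shown.

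Between the lines, the mean change at 20 µM was called up in both for 19 members and down in both for 2, where 19.4% of all genes were up in both and 22% down. In MiaPaCa-2, 31 members rose and 5 fell by this mean (67.8% of all genes called), and in PANC-1 30 and 5 (61.9%). The 19 shared members were 61.3% of those that rose in MiaPaCa-2 and 63.3% of those in PANC-1, where for all genes the shares were 56.7% and 63%. They held ATP6V1F and ATP6V1G1, CTSD, CTSL and CTSZ, HEXA, LAMP2, NPC1 and NPC2, VPS28, VPS37D and VPS39, and SNX3, SNX9, SNX10, SNX14, SNX15, SNX21 and SNX29. CTSC and CTSV fell in both. Some of these means rest on 1 control. In MiaPaCa-2 the calls of SNX10 (0.54), SNX29 (0.33) and VPS37D (0.35) were lost without control replicate 2, and those of SNX15 (0.72) and VPS39 (0.41) without control replicate 1. In PANC-1 those of NPC2 (0.20) and SNX3 (0.12) were lost without control replicate 2, those of SNX15 (0.59) and SNX29 (0.52) without control replicate 3, and that of VPS37D without control replicate 1 (0.38) or 2 (0.43). LAMP2 in PANC-1 went from 0.18 to 0.11 without control replicate 3 and was still called. SNX29 in PANC-1 was near the floor, at 0.8611, 0.4553 and 0.08237 FPKM in the controls. It passed the filter there mainly through libraries at 20 µM, where it was high, so its increase in that line does not stand apart from the filter. ATP6V0E2 alone was called in opposite directions, at -0.38 in MiaPaCa-2 and 0.43 in PANC-1, with a difference of -0.81 (adjusted p = 1.77e-04). Its MiaPaCa-2 call was lost without either control (-0.36 and -0.39).

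**Figure D5:**
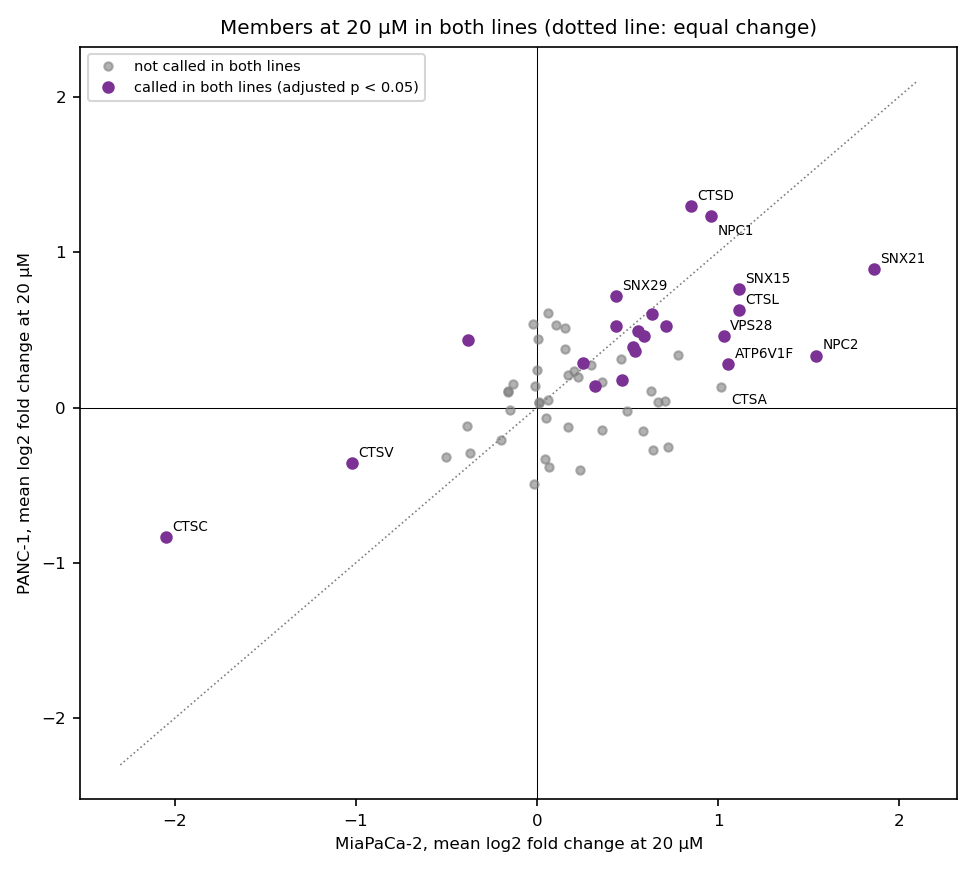
Mean log2 fold change over the 3 statins at 20 µM in MiaPaCa-2 (horizontal) against PANC-1 (vertical) for each of the 63 members, filled where called in both lines, with a dotted line of equal change. CTSD and NPC1 lie above the line, NPC2, SNX21 and CTSA lie below it on the right, and CTSC and CTSV are lower in both lines.

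The difference of the responses was tested in 1 model of both lines. Fluvastatin at 20 µM gave 13 members a higher and 9 a lower change in MiaPaCa-2 than in PANC-1 (34.2% of all genes called), lovastatin 14 and 9 (32.5%), and simvastatin 18 and 12 (46.1%). Of the members that differed with every statin, 6 were higher in MiaPaCa-2, where the background was 4.96%, and 4 lower, where it was 6.4%. Averaged over the statins, 37.6% of all genes were called. Among the members that differed with every statin, the largest means were those of NPC2 (1.21, 95% interval 0.94 to 1.48, adjusted p = 1.36e-08), CTSA (0.89, 0.71 to 1.07, 2.33e-09) and ATP6V1F (0.78, 0.60 to 0.96, 2.81e-08). On the other side, within the same members, they were those of CTSC (-1.21, -1.60 to -0.83, 5.96e-06), SNX33 (-0.55) and SNX18 (-0.44). VPS28 (0.57), ATP6V1E1 (0.52) and ATP6AP1 (-0.43) also differed with every statin. CTSD, which rose in both lines, rose more in PANC-1 (-0.44, adjusted p = 5.40e-06), and SNX21 (0.97) and VPS35 (0.74) had the larger change in MiaPaCa-2. The differences of CTSL (0.49) and CTSV (-0.67) lost their calls without MiaPaCa-2 control replicate 2 (0.43) and replicate 1 (-0.38), and CTSL had 0.32, still called, without PANC-1 control replicate 3. The lovastatin difference of CTSC (-0.65) was lost without any of 8 single libraries, and that of VPS28 (0.60) without MiaPaCa-2 lovastatin replicate 1 (0.46).

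The lines started from different levels. Between the controls, 21 members were higher and 26 lower in MiaPaCa-2, where 64.6% of all genes were called, with a median of -0.15 for members and 0.11 for all genes. By 2-fold or more, 4 members were higher and 10 lower, where 12.7% and 13.8% of all genes were. Higher in MiaPaCa-2 were CTSC (1.84, 95% interval 1.5 to 2.17), CTSK (1.32, 0.67 to 1.97) and ATP6V0D1 (1.14, 0.79 to 1.49). Lower were VPS37B (-1.63, -1.91 to -1.35), SNX19 (-1.36, -1.73 to -0.99), VPS28 (-1.36, -1.60 to -1.12) and CTSD (-1.28). VPS28 and CTSD thus stood lower at the start in MiaPaCa-2, and CTSC stood higher in the line where it fell further.

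Genes of the same pathways outside the symbol rule gave a wider view. Of 25 further lysosomal hydrolases and their activators, 13 rose and 4 fell in MiaPaCa-2 at 20 µM over the mean of the statins, with a median of 0.32, and 13 rose and 3 fell in PANC-1, also with a median of 0.32. Of all genes, 67.8% and 61.9% were called in this contrast, and the counts that follow at 20 µM are read against the same shares. PSAP, the precursor of the saposins that present lipids to hydrolases, rose by 1.98 ± 0.03 (adjusted p = 1.20e-16) in MiaPaCa-2 and by 2.12 ± 0.06 (3.00e-15) in PANC-1. At 2 µM, 17 of the hydrolases rose and none fell in MiaPaCa-2, where 51% of all genes were called, with a median of 0.52, and in PANC-1, where 6.34% of all genes were called by this mean, 1 fell. Of 10 further membrane proteins, 8 rose and 1 fell in MiaPaCa-2 at 20 µM, and 4 and 1 in PANC-1, led by the sialic acid exporter SLC17A5 (1.57 and 1.1).

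Among 11 genes of the MiT/TFE factors and the docking of mTORC1 at the lysosome, 9 rose and none fell in MiaPaCa-2 at 20 µM (67.8% of all genes called), with a median of 0.42, and 5 rose and none fell in PANC-1 (61.9%), with a median of 0.09. TFE3, one of the MiT/TFE factors, rose by 0.96 (adjusted p = 5.21e-08) and 0.68 (1.15e-05). Its binding to the promoters shown above was not tested. RRAGD, a RAG GTPase, rose in MiaPaCa-2 by 2.25 ± 0.08 (6.57e-13) and had -0.06 in PANC-1. RRAGC rose by 1.64 and 0.92. A further list held mannose 6-phosphate and sorting receptors, with the enzymes and adaptors that work with them. Of these genes, 3 of 7 rose and 2 fell in MiaPaCa-2, and 3 of 8 rose and 1 fell in PANC-1. IGF2R, the large mannose 6-phosphate receptor, rose by 1.5 (4.83e-06) and 0.73 (1.78e-05), while its smaller relative M6PR fell in PANC-1 (-0.57). CSTB, a cytosolic inhibitor of cysteine cathepsins, rose by 1.92 (3.29e-15) and 1.39 (9.27e-15). Further ESCRT genes rose in 8 of 16 and 11 of 17 and fell in 2 of each, and WASH and RAB7 genes rose in 6 of 9 and 4 of 10 with none falling, in MiaPaCa-2 and PANC-1 in turn, again beside 67.8% and 61.9% of all genes called.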

How the data were processed

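RNA was selected on poly-T and sequenced as 150-base read pairs, and the deposited table gives log2 values of FPKM made by the authors with TopHat2 2.0.13, Cufflinks 1.1 and Cuffdiff on hg19, per the submitters' processing notes. The values were read as log2(FPKM + 1), since none of the deposited log2 values was 0 or below and the lowest was 0.00424, but the pseudocount is not stated. No source used here says how the 8738 genes were selected, the sequencing depth is unknown, and in every library used at least 97.1% of the values recur in 5 or more columns. The columns thus draw on largely the same values and have nearly the same distribution. Medians of all genes near 0 and like shares up and down can follow from that alone. Equal values, such as 475.9 FPKM for CTSC in both MiaPaCa-2 controls, are for the same reason no measure of how well replicates agree. The MiaPaCa-2 control 3 column equalled a weighted sum of MiaPaCa-2 controls 1 and 2 and a PANC-1 fluvastatin column, and the MiaPaCa-2 lovastatin 20 µM column 3 one of lovastatin replicates 1 and 2 and a simvastatin column, so both were left out and 40 libraries were used.

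Genes with an FPKM of 1 or above in 3 or more libraries were tested, 8534 in MiaPaCa-2, 8615 in PANC-1 and 8738 in both. Group means were fitted with limma 3.58.1 in R 4.3.3 (mean-variance trend, robust), per line, and for differences between lines in 1 model of all libraries. Adjusted p-values are Benjamini-Hochberg over all genes tested, two-sided, with calls under 0.05. The code was tested on simulated data. Intervals are at 95%.

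The members and lists were chosen with earlier results of these data known. Members were named by rule: up to 6 per direction at 20 µM and 4 at 2 µM among those called with all 3 statins, up to 3 per direction in other contrasts, and the highest in each role; others are named within their role. E-box letters were counted in RefSeq promoters on GRCh38.p14. The alternatives tried were median centring, quantile normalization, a pseudocount of 0.1, no filter, a replicate block, fits of the compared groups alone, all 42 columns, no variance trend, adjustment over all 6 pairs of a dose, and leaving out single libraries.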

Additional observations from a re-analysis of the deposited data

Results flagged for a closer look

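The response to 20 µM differed between MiaPaCa-2 and PANC-1 for 6 named members, by limma's test of the difference itself over the mean of the statins, in MiaPaCa-2 minus PANC-1 on the log2 scale. NPC2, which hands cholesterol to NPC1, had 1.21, with 1.36, 1.19 and 1.09 for fluvastatin, lovastatin and simvastatin. CTSA, the protective carboxypeptidase, had 0.89, and the V1 subunit ATP6V1F had 0.78. The dipeptidyl peptidase CTSC had -1.21, with -1.39, -0.65 and -1.60 for the statins in turn. SNX33 and SNX18, endocytic sorting nexins, had -0.55 (adjusted p = 0.00543) and -0.44 (adjusted p = 0.00642). The SNX33 mean lost its call without MiaPaCa-2 control replicate 2 (-0.49), and the calls of both nexins with some single statins were lost without single libraries.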

How the results depend on the processing

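No named value reversed its direction under any alternative run, while counts were compared by size alone. Calls of named members were lost, however. Of 460, 67 were lost with the compared groups alone, 19 with the replicate block and 12 without variance trend. Median centring, the pseudocount of 0.1, quantile normalization and no filter lost 5, 4, 2 and 1. The numbers of members called were within 1.5 times the main number under the pseudocount of 0.1, no filter, quantile normalization, median centring and all 42 columns. The columns already had nearly the same distribution, so quantile normalization and median centring could change little. The columns added to reach 42 were weighted sums made mainly from libraries of their own groups. Like counts under quantile normalization, median centring and all 42 columns are therefore hardly a test of the processing. With the compared groups alone, 22 members were called for simvastatin at 20 µM in PANC-1 (39 in the main test), 13 for the line difference with lovastatin (23), 1 for fluvastatin at 2 µM in PANC-1 (2) and 0 between statins at 2 µM in MiaPaCa-2 (1). That last call, of SNX10, was also lost (0) without variance trend, under adjustment over all 6 pairs, and across single libraries left out (0 to 1). Fits of the compared groups alone also ended named calls for simvastatin at 20 µM in PANC-1. Among them were those of SNX9, SNX18, VPS37B, CTSZ, NPC2 and GLB1 (limma, adjusted p = 0.0549 to 0.0751). Leaving out single libraries gave 9 to 16 members for fluvastatin against lovastatin at 20 µM in MiaPaCa-2, with 10 without lovastatin replicate 1 and 9 without replicate 2, 1 to 2 for fluvastatin and for lovastatin at 2 µM in PANC-1, and 0 to 2 between statins there.

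Same-numbered libraries did not deviate together (median correlation 0 in each line, with a range of -0.09 to 0.16 in PANC-1), so the labels give only a shared number. The replicate block gave 37, 32 and 41 members at 20 µM in MiaPaCa-2 and 36, 27 and 39 in PANC-1, and moved 1 count by over 1.5 times, lovastatin at 2 µM in PANC-1, from 1 to 2. The causes were not tested. Depth is unknown, so the precision of low levels such as CTSS in MiaPaCa-2 cannot be given.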
